A study of Mus musculus with 4 samples.

Results

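BCL6 is a zinc finger repressor that holds target genes down by recruiting corepressor complexes, and its gene, Bcl6, lies next to Lpp on mouse chromosome 16. The peaks described here are those on chromosome 16 that the authors assigned to the promoter of Bcl6 or Lpp as the nearest one, at any distance. There were 10 of them among 5741 peaks, 6 nearest to Bcl6 and 4 nearest to Lpp. The inguinal list held 8 of its 1785 peaks there (0.448%, Wilson 95% interval 0.227 to 0.882%), and the perigonadal list 2 of its 3956 (0.0506%, 0.0139 to 0.184%).

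Both libraries came from adipocyte nuclei of C57BL/6 mice with the genotype Adipoq-Cre;Sun1-sfGFP-myc, inguinal (subcutaneous) fat for one and perigonadal (visceral) fat for the other. Adipoq-Cre acts in cells that express adiponectin, so the nuclear envelope tag Sun1-sfGFP-myc marks adipocytes, whose nuclei were collected on c-myc beads. Their chromatin was then immunoprecipitated with a custom polyclonal antibody against mouse Bcl6 raised in guinea pig. For either of the 2 depots the labels give 1 such library and 1 input without antibody, and the inputs were not used here. The age and sex of the mice, and how many gave each library, are not given in the sources used here. With a single library per depot no difference between depots was tested, and expression was not measured in these files, so the peaks show where BCL6 was called and not what it did to either gene.

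BCL6 binds DNA letters close to those of STAT proteins, built on TTC and GAA arms. In human germinal centre B cells BCL6 is known to repress its own gene through sites near the gene's start, and the stretch between BCL6 and LPP is known there for distal regulatory elements. Lpp encodes a LIM domain protein of the zyxin family that sits at focal adhesions. Its human form was named the lipoma preferred partner, after gene fusions found in tumours of fat. The comparisons below ask whether BCL6 occupied its own gene's surroundings in fat cells, and whether the depots had sites in common there.

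On the mm10 assembly Bcl6 spans chr16:23965050-23988866 and is read from the minus strand, so that its upstream side runs toward Lpp at chr16:24393350-24992578, which is read from the plus strand. No peak of either list was called inside Bcl6 or on its promoter. The RefSeq promoter table (GRCm38.p6, the same assembly) gives Bcl6 2 start sites, and the 250 bases before each are shown. Bases after the starts are not shown, and a site near a start could lie there as well. Capitals mark each match of TTCNNNGAA, which reads the same on both strands.

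Bcl6 start 1, chr16:23988853-23989102, minus strand: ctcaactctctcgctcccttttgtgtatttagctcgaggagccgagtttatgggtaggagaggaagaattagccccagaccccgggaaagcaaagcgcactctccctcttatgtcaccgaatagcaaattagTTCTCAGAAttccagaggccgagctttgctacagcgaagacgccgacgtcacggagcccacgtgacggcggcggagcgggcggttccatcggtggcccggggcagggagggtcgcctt

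Bcl6 start 2, chr16:23981284-23981533, minus strand: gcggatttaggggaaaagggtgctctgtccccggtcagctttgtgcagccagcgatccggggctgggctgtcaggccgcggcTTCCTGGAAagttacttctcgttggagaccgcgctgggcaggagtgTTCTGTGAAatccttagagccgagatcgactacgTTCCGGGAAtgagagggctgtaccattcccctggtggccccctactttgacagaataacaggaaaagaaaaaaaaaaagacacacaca

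The window of start 1 had 1 match, TTCTCAGAA at chr16:23988962-23988970. The window of start 2, which lies within the gene, had 3 matches. These were TTCCTGGAA at chr16:23981443-23981451, TTCTGTGAA at chr16:23981397-23981405 and TTCCGGGAA at chr16:23981363-23981371. Only the first of the 3 also fits TTCNTNGAA and the narrower TTCCTNGAA, each searched on both strands. Every sequence that fits one of the narrower motifs also fits TTCNNNGAA. Of 32851 promoter windows of 300 bases in the table, 8.30% held TTCNNNGAA, 3.76% held TTCNTNGAA and 1.59% held TTCCTNGAA. Only 11 windows, 0.0335%, held TTCNNNGAA 3 times or more. That cutoff is the count of start 2 itself, so the share describes this window and tests nothing. The windows of 300 bases also include 50 bases after the start, which the sequences above leave out. The nearest peak to start 2 lay 30.9 kb away in the inguinal and 103 kb away in the perigonadal list. Lpp start 1 had no match and Lpp start 2 had 1, TTCTGGGAA at chr16:24721694-24721702. A match describes letters and does not show a bound site. The sequences under the member peaks themselves are not shown, because none of the 10 peaks reached a window of the promoter table.

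The Bcl6 peaks formed a string of sites in the intergenic stretch before the gene. Scores are the authors' values and rise in steps of 0.752 (inguinal) or 0.882 (perigonadal), a step being read as 1 sequenced tag, so each score can carry an exact Poisson 95% interval that covers counting error only. In the inguinal list the site closest to the promoter, 23.6 kb upstream at chr16:24012132-24012334, scored 10.5 on 14 tags (5.76 to 17.7). The tallest of the 4 inguinal sites lay 88.7 kb upstream at chr16:24077161-24077363 and scored 11.3 on 15 tags (6.31 to 18.6). The intervals of these 2 sites overlap almost entirely, so their order is not resolved.

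Farther out the inguinal list had sites at chr16:24128753-24128955, 140 kb upstream, and at chr16:24166412-24166614, 178 kb upstream. Each scored 8.27 on 11 tags (4.13 to 14.8). Both lie in annotated repeats, the nearer one in a MIR3 SINE and the farther one in an MTD element of the ERVL-MaLR class of LTR retroelements. The 4 inguinal sites thus ranged from 11 to 15 tags, and all 4 intervals overlap.

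In perigonadal fat BCL6 had 2 sites before its own gene. The site at chr16:24172777-24172961, 184 kb upstream, scored 18.5 on 21 tags (11.5 to 28.3), and was the taller of the 2. The site at chr16:24084100-24084284, 95.6 kb upstream, scored 11.5 on 13 tags (6.10 to 19.6). Neither lies in an annotated repeat. Their intervals overlap as well.

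**Figure D1:**
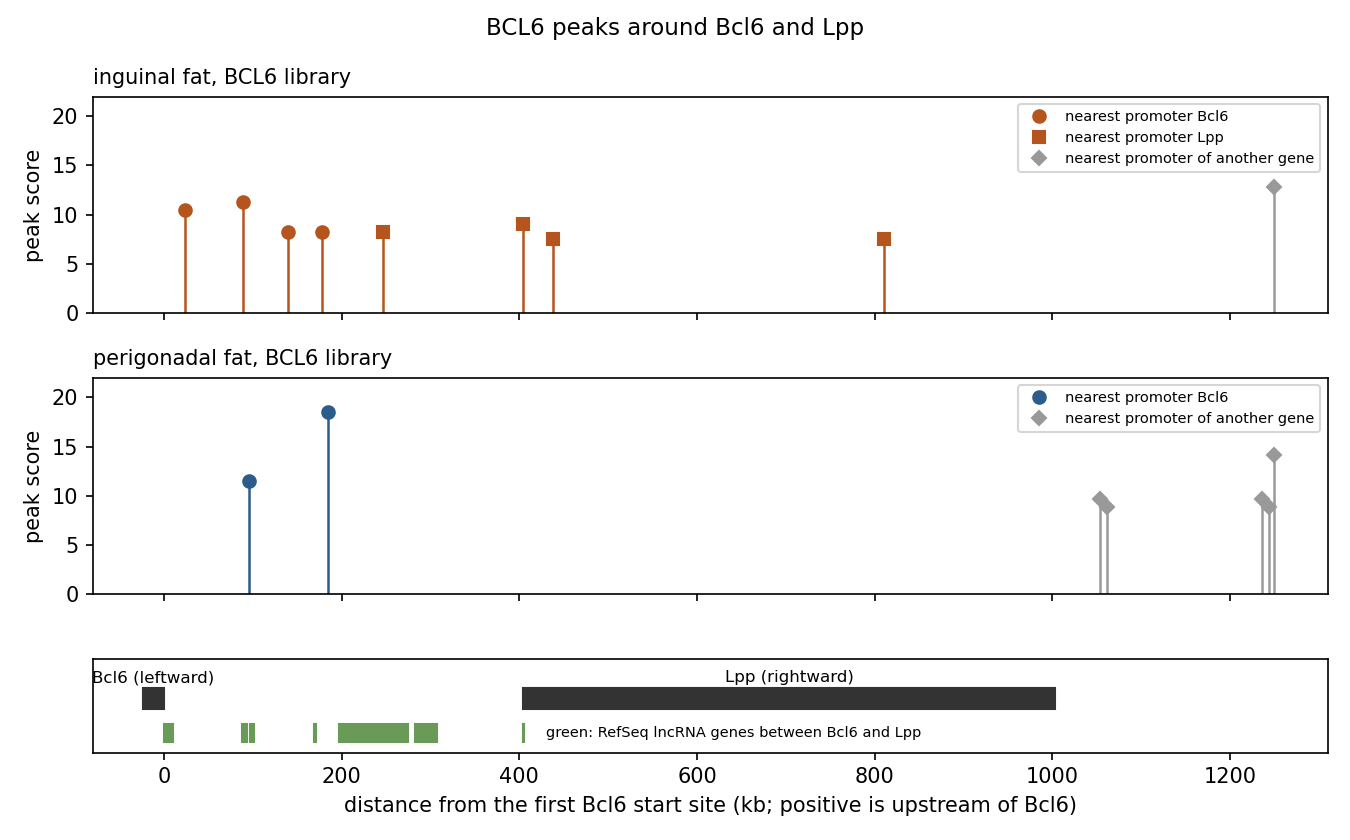
Peak score (vertical axis, authors' units within each list) against distance in kb from the first RefSeq start site of Bcl6, with positive values upstream of Bcl6, for the inguinal library (top) and the perigonadal library (middle), and the gene map below. The 4 inguinal and 2 perigonadal Bcl6 peaks (circles) start 23.4 kb upstream of that site and reach 184 kb, the 4 Lpp peaks (squares) are in the inguinal list alone, and grey diamonds are peaks nearest to other genes.

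All 6 Bcl6 peaks lay upstream of the promoter. Upstream of their nearest promoter lay 40.8% of all inguinal and 42.1% of all perigonadal peaks. The space around Bcl6 is itself lopsided. Between the midpoints to its protein-coding neighbours, Rtp2 on one side and Lpp on the other, it has 235 kb, of which 86.0% is upstream of its first start site. With both lists laid together the sites spanned 161 kb, with gaps of 65.0, 6.93, 44.7, 37.7 and 6.36 kb between neighbours. Only the gaps of 65.0 and 37.7 kb lie between sites of the same list, the inguinal one. The others run from a site of one list to a site of the other.

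No site was common to the depots. An overlap of at least 1 bp with a peak of the other list counted as shared, and 0 of the 8 inguinal peaks at Bcl6 and Lpp were shared (Wilson interval 0 to 32.4%), against 28.5% of the inguinal list. Lower peaks were shared less often, and among the 1235 other inguinal peaks of 10 to 15 tags, the range of these 8, 10.9% were shared. In the perigonadal list 0 of 2 were shared (0 to 65.8%), against 12.8% of the list and 29.3% of the 638 other peaks of 13 to 21 tags. Each interval covers both the share of the whole list and that of peaks of like height. With 8 and 2 peaks the intervals are too wide to tell such shares apart, so no conclusion is drawn from the missing overlap.

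The sites of the depots lay near each other at 2 places. The perigonadal site 95.6 kb upstream was 6.93 kb from the inguinal site at 88.7 kb, and the perigonadal site 184 kb upstream was 6.36 kb from the inguinal site at 178 kb, measured between peak centres. Thus 2 of 8 inguinal and 2 of 2 perigonadal peaks had a peak of the other list within 10 kb. Both counts come from the same 2 pairs, and with so few peaks no conclusion is drawn from them. In the whole lists 33.5% of inguinal and 15.8% of perigonadal peaks did. Among other peaks of like height, 16.4% of 1235 inguinal and 33.2% of 638 perigonadal peaks did. Most of those are overlapping pairs. Among peaks that were not shared, 7.05% of 1277 inguinal and 3.45% of 3448 perigonadal peaks had one that close, and the median distance to the other list was 157 kb and 365 kb. The inguinal site 23.6 kb upstream was 72.0 kb from the nearest perigonadal peak.

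Lpp had 4 peaks in inguinal fat and none in perigonadal fat. The only member peak at a promoter lay 0.613 kb before the first start site of Lpp at chr16:24392636-24392838 and scored 9.03 on 12 tags (4.66 to 15.8). It also falls inside Lppos, a long non-coding gene read from the opposite strand across the start of Lpp. Among the 94 inguinal peaks that the authors annotated as promoter peaks, 54 were taller, and their median score was 10.5.

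Inside Lpp the inguinal list had a peak in intron 1 of 12 of the long transcript at chr16:24426848-24427050 and one in intron 3 of 7 of a shorter transcript at chr16:24799498-24799700. Both scored 7.52 on 10 tags (3.61 to 13.8), and the second lies in an Lx4A LINE element. The second is also 28.3 kb from Mir28a, a microRNA gene hosted by Lpp. The remaining peak, at chr16:24234737-24234939, lies between the genes, 159 kb upstream of Lpp, and scored 8.27 on 11 tags (4.13 to 14.8). It carries an alanine tRNA annotation and lies within the non-coding gene Gm31814.

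Of the 8 inguinal peaks 4 (Wilson interval 21.5 to 78.5%) lay in annotated repeats, tRNA included, against 21.1% of the list and 24.7% of other peaks of the same height. The interval covers the share at the same height and starts just above that of the whole list. In the perigonadal list 0 of 2 did, against 24.0% of the list. The focus ratio, which describes how tags gather around the centre of a peak, ran from 0.65 at the Lpp promoter to 0.846 in intron 1 of Lpp, with a median of 0.786 beside 0.812 for the inguinal list. For the perigonadal sites it was 0.778 and 0.828, beside a list median of 0.833.

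Most member peaks were of low to middle height in the inguinal list, and both were above the middle in the perigonadal list. The 2 tallest inguinal ones, both at Bcl6, lay at percentiles 71.6 and 67.5 of their list. The tallest inguinal one ranked 486 of 1785 and the lowest ranked 1423, and the median percentile by score was 33.7. The perigonadal sites ranked 311 and 807 of 3956. Of the 8 inguinal peaks 2, both at Bcl6, rested on more than 12 tags, against 41.3% of the list, and of the 2 perigonadal peaks 2 did, against 24.0%. None of the Lpp peaks passed that limit. Scores are scaled within each list and do not show a difference of level between depots.

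**Figure D2:**
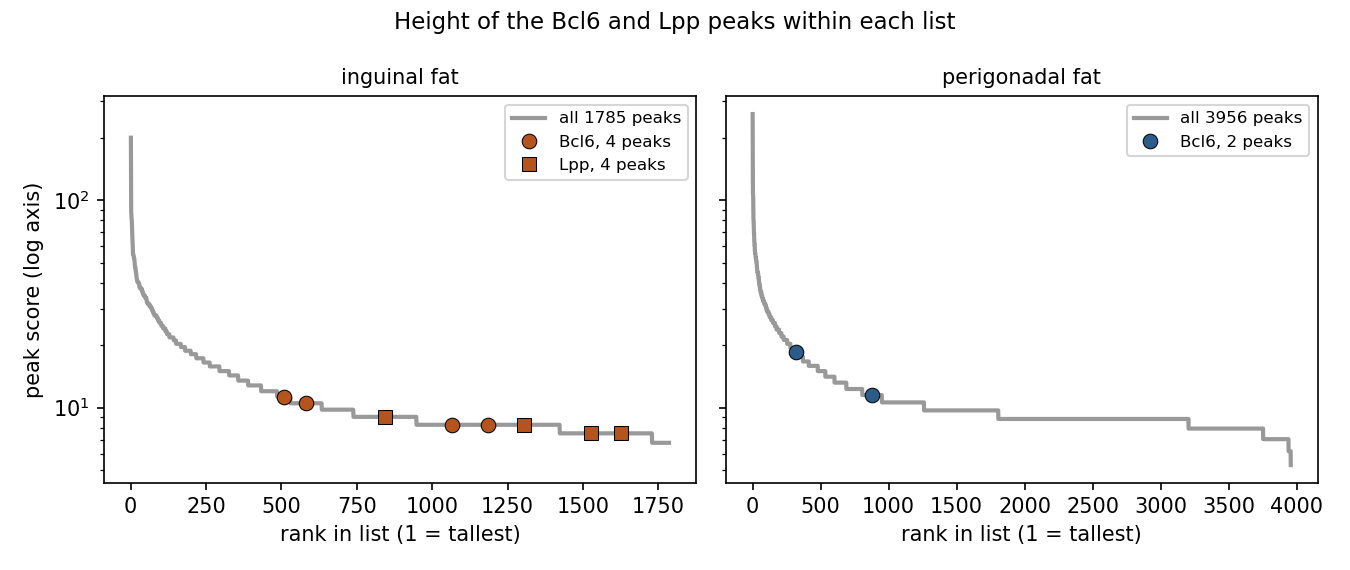
Peak score (log axis) against rank in the list, for the inguinal list (left) and the perigonadal list (right), with all peaks as a grey line and the Bcl6 peaks (circles) and Lpp peaks (squares) on it. Peaks of equal score are spread over the ranks that score takes; the inguinal members lie from rank 486 downward and the 2 perigonadal ones at ranks 311 and 807.

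In inguinal fat the region held many peaks, most of low to middle height. Bcl6 and Lpp were both among the 6 genes with 4 nearest peaks, the highest number of any of the 1593 genes in the inguinal list, where the median was 1. The other 4 were Atp2b1, which encodes a calcium pump of the plasma membrane, Sipa1l2, which encodes a relative of Rap GTPase activating proteins, and the non-coding genes Gm29684 and 4930517M08Rik. Each of those 4 had 2 or 3 shared inguinal peaks, and their tallest inguinal peaks scored from 12 to 35.4. Bcl6 and Lpp had 0 shared peaks, and their tallest inguinal peaks scored 11.3 and 9.03. These counts were not set against the space around each gene. Between the midpoints to protein-coding neighbours that space is 235 kb for Bcl6 and 813 kb for Lpp. With more than 12 tags the inguinal counts were 2 for Bcl6 and 0 for Lpp.

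Atp2b1 was the only protein-coding gene with the same pair of counts as Bcl6, 4 inguinal and 2 perigonadal peaks. It was sought over the 2 libraries as the gene of most like pattern, but it has shared peaks, so no gene met the full rule of equal counts and no shared peak. Its shared inguinal peaks scored 35.4 and 16.5, and their perigonadal partners 27.3 and 9.70. In the perigonadal list 589 of 3180 genes, 18.5%, had at least the 2 peaks that Bcl6 had.

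**Figure D3:**
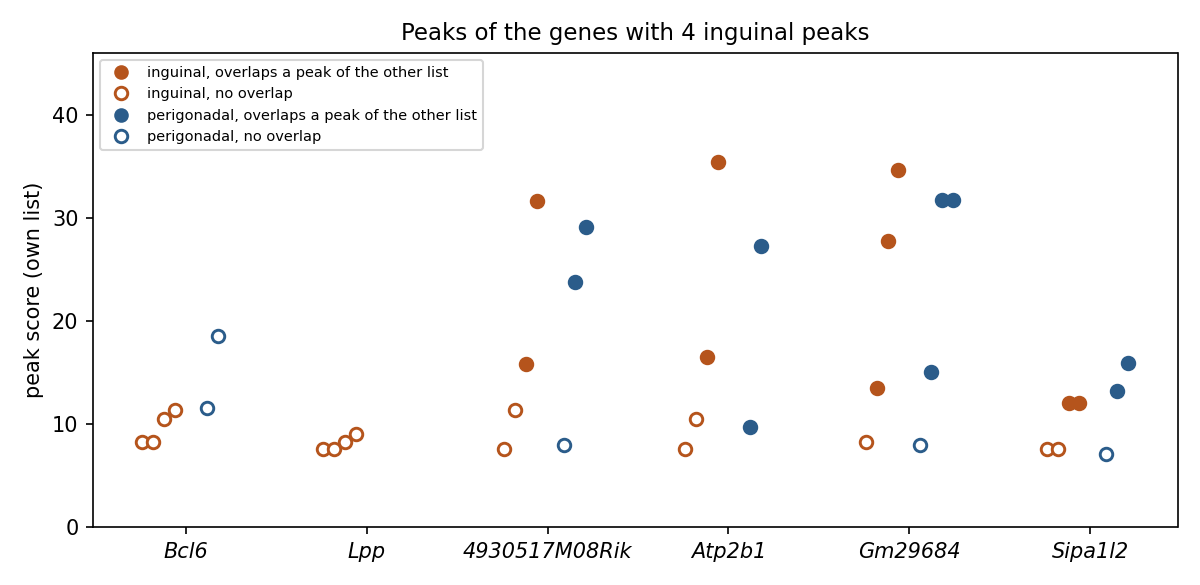
Score of every peak (vertical axis, own list's units) of the 6 genes with 4 inguinal peaks, inguinal peaks in orange left of perigonadal peaks in blue, filled where the peak overlaps one of the other list. All 10 peaks of Bcl6 and Lpp are open symbols, while each of the other genes has filled ones.

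All 10 peaks fell in a single 1 Mb bin, chr16:24000001-25000000. With 8 inguinal peaks it was 1 of 2 bins that held that many among 2732 bins across the genome, where the mean was 0.653 and the median 0. The other was the bin of Socs2, the gene of an inhibitor of cytokine signalling, on chromosome 10. That bin had 6 shared peaks among its 8 inguinal and 12 perigonadal ones, and the bin of Bcl6 and Lpp had 0 shared and 2 perigonadal ones, a number that 38.3% of bins reached. With all bins moved by 500 kb, a check added after the data were seen, the bin with most of these peaks held 7 inguinal peaks, a number reached by 3 bins. Counting only peaks above 12 tags, the bin held 2, a number reached by 135 bins.

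**Figure D4:**
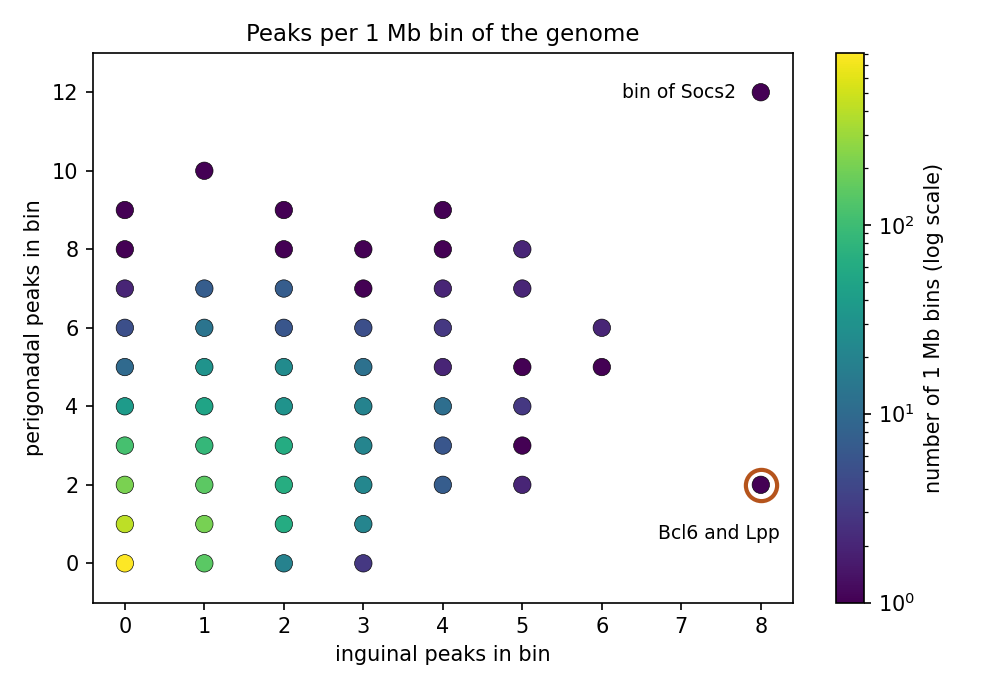
Number of perigonadal peaks (vertical axis) against number of inguinal peaks (horizontal axis) in each of 2732 bins of 1 Mb, with colour giving how many bins share a position. The bin of Bcl6 and Lpp (ring) has 8 inguinal and 2 perigonadal peaks, and the bin of Socs2 has 8 and 12.

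Per length, the interval from the end of Rtp2 to the start of Tprg, 1.36 Mb with Bcl6 and Lpp inside, had 9 inguinal peaks or 6.64 per Mb (Poisson interval 3.03 to 12.6), against 0.657 per Mb (0.627 to 0.689) on the rest of the annotated chromosomes. In the perigonadal list it had 7 or 5.16 per Mb (2.08 to 10.6), against 1.46 (1.42 to 1.51). Of the 7 perigonadal peaks only the 2 of Bcl6 are members, and in a 1 Mb window centred on Bcl6 and Lpp the perigonadal rate was 2.0 per Mb (0.242 to 7.22), which covers the 1.46 elsewhere, while the inguinal rate was 8.0 (3.45 to 15.8). The region was chosen with these lists known, so the rates describe it and test nothing. The stretch between the genes was the densest, with 6 inguinal peaks in 0.404 Mb or 14.8 per Mb (5.44 to 32.3), one of them at the Lpp promoter. The perigonadal list had 2 there, or 4.94 per Mb (0.599 to 17.9), which covers its rate elsewhere. Within the 599 kb of Lpp the rates were 3.34 per Mb (0.404 to 12.1) in inguinal fat and 0 (0 to 6.16) in perigonadal fat. Each interval covers the rate of its own list elsewhere, 0.657 and 1.46 per Mb. Both the inguinal peaks in Lpp and the lack of perigonadal ones were thus within counting error of those rates.

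The gene assigned to a site depended on the annotation. RefSeq lists 7 long non-coding genes from the start of Bcl6 to the start of Lpp, Lppos among them, and the authors' lists name none of the 7 for these peaks. Among RefSeq starts of protein-coding genes all 6 Bcl6 and all 4 Lpp peaks kept their gene. Among starts of all biotypes only 1 of 6 Bcl6 peaks, the inguinal one at 23.6 kb, stayed nearest to Bcl6, and 2 of 4 Lpp peaks stayed with Lpp. The Lpp peak at chr16:24426848-24427050 went to Lppos, whose start is 33.3 kb away. The Lpp start that the authors used, 21.1 kb away, is not among these RefSeq starts. The perigonadal site 95.6 kb upstream of Bcl6 lies 1.5 kb from the start of Gm46545, and the inguinal site at 88.7 kb lies inside that gene. The perigonadal site at 184 kb lies 13.3 kb and the inguinal site at 178 kb 6.95 kb from the start of Gm32126.

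Genes known to act with or on Bcl6 were looked up by the same rule, nearest promoter at any distance. Of 27 regulators, partners and relatives, 3 had an inguinal peak (11.1%) and 11 a perigonadal peak (40.7%), beside 6.15% and 12.3% of 21900 protein-coding genes. The list was not matched on the space around its genes. It was chosen with earlier results of these data known, so the shares describe it and test nothing. None of its peaks was shared, beside 28.5% of all inguinal and 12.8% of all perigonadal peaks, and nearly all were low peaks, which were shared less often. Among the transcription factors that drive Bcl6, Stat3 had a perigonadal peak of 7.93 in an intron, Stat6 had 2 of 8.82 within 5.62 kb, and Foxo1 and Foxo3 had intronic ones of 9.70. Irf4 and Prdm1, which oppose Bcl6 in B cells, had intergenic perigonadal peaks. Those of Irf4 scored up to 10.6 and lay 33.6 and 53.7 kb away. That of Prdm1 scored 7.93 and lay 119 kb upstream, and Prdm1 also had an inguinal one of 9.03 lying 275 kb upstream. Bach2, a repressor that cooperates with BCL6 in B cells, had 3 perigonadal peaks of 8.82 to 9.70. All 3 were intergenic, 47.8, 65.4 and 148 kb upstream.

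Among corepressor genes, Hdac4, a class IIa histone deacetylase gene, had the only peaks of the list above 12 tags, an intronic perigonadal one of 36.1 and an intronic inguinal one of 9.78. Mta3, the gene of a NuRD subunit, had 2, of 9.70 and 7.05. Tbl1xr1, a subunit gene of a histone deacetylase corepressor complex, had distant peaks of 8.27 in inguinal and 7.05 in perigonadal fat. The other 16 genes, among them Stat5a, Stat5b, Ncor1, Bcor, Hdac3 and the paralogue Bcl6b, had none in either list. The zyxin family counted 1 of 6 genes with an inguinal peak and 0 with a perigonadal one, beside the same 6.15% and 12.3% of all protein-coding genes. The 1 was Lpp, which is a member by the choice of genes, and Zyx, Trip6, Limd1, Ajuba and Wtip had none.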

How the data were processed

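Chromatin immunoprecipitation sequencing was used for BCL6 in nuclei fixed with disuccinimidyl glutarate for 30 minutes and with 1% formaldehyde for 10 minutes, per the labels' protocols. Per the submitters' processing notes, Bowtie 1.2, HOMER and mm10 were used. Peaks were annotated with HOMER, per the file headers, and the inguinal header names a false discovery rate of 0.001 while the perigonadal header names no limit, so calling may have differed. Whether libraries were pooled is not stated. The deposited peak score is the authors' scaled value, the deposited focus ratio is a fraction, and the distance to the promoter is theirs as well. No source used here gives the scaling total, and the depth is unknown. All scores were whole multiples (100%) of 1 step per list within rounding. Members were matched by Entrez number and by name, with equal results. Python 3.11.15, pandas 2.3.3 and scipy 1.17.1 were used, and overlap, distance and step routines were tested on simulated data. RefSeq genes and promoter sequences came from GRCm38.p6. Named are all members, their coding neighbours, list genes with a peak and up to 5 genes of like pattern; 1 list gene with a peak is counted but not named; other genes named complete a count or were chosen with their values in view. The members and lists were chosen with earlier results of these data known. Tags are not independent molecules, so intervals cover counting error only.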

Additional observations from a re-analysis of the deposited data

How the results depend on the processing

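Each depot had a single library, peaks of 10 to 15 tags lie close to the calling limit of the inguinal list at 9 tags, and nothing here separates depot from library. The 10 sites and the absence of sharing held with an overlap of at least 50% of the shorter peak, with centres within 1 kb and, added after the data were seen for sharing, with both lists held to 1785 peaks. Values moved in the following cases. With more than 12 tags the inguinal count was 2 for Bcl6, 0 for Lpp and 2 in all. The rate from Rtp2 to Tprg was then 2.21 per Mb (0.456 to 6.47) for either depot, against 6.64 inguinal and 5.16 perigonadal with all peaks. Rates elsewhere fell under this limit too, to 0.272 per Mb (inguinal) and 0.351 per Mb (perigonadal), and both lay below that interval. The interval of the 1 Mb window centred on the genes, 0.242 to 7.22 under the same limit, covered both. With RefSeq starts of all biotypes, added after the data were seen, the inguinal counts were 1 for Bcl6 and 2 for Lpp. The perigonadal count for Bcl6 was 0. For the Bcl6 peaks that moved and the Lpp peak at chr16:24234737-24234939, a non-coding start lies closer. The Lpp peak at chr16:24426848-24427050 moved because those starts lack the Lpp start that the authors used. By position between Rtp2 and Tprg the perigonadal count was 7. With centres within 10 kb, 2 inguinal and 2 perigonadal peaks counted as shared. In the 1 Mb window centred on the genes the perigonadal rate was 2.0 per Mb (0.242 to 7.22), no longer above the rate elsewhere. Outside repeats the median percentile of the inguinal peaks was 56.1. No paired analysis was possible because each depot has 1 BCL6 library and no test was run.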

Other observations

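Between Rtp2 and Tprg the only shared site lay beyond Lpp, 48.0 kb before Tprg, a gene named for its regulation by Trp63. It scored 12.8 on 17 tags at chr16:25238674-25238876 in inguinal fat. In perigonadal fat it scored 14.1 on 16 tags at chr16:25238726-25238910. The side beyond Rtp2 was not looked up, so a nearer shared site there is possible. The perigonadal list had 4 further peaks between Lpp and Tprg, 2 nearest to the non-coding gene A230028O05Rik with 9.70 and 8.82 and 2 nearest to Tprg with 9.70 and 8.82, where the inguinal list had none. Beyond Tprg, Trp63, the gene of the p63 transcription factor of epithelia, had perigonadal peaks of 8.82, 9.70 and 10.6 and no inguinal peak in the stretch looked up. That stretch ended at a fixed distance, so Trp63 peaks farther out are possible.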
